A study of Mus musculus with 6 samples.

Results

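Tead factors are the DNA-binding partners through which the Hippo pathway reaches its target genes, and the cofactors Yap, Taz and Vgll bind them. The 9 genes described here are the Tead factors Tead1, Tead2, Tead3 and Tead4, the coactivators Yap1 and Wwtr1 (which encodes Taz), and the Vestigial-like cofactors Vgll2, Vgll3 and Vgll4. They were taken by symbol and matched to Ensembl identifiers, and all 9 had a row among the 21666 genes of the count matrix. The data are bulk RNA-seq gene counts of satellite cells, the muscle stem cells, from mouse skeletal muscle after 2 days of differentiation in culture. There were 3 libraries from mice with a knockout of the long noncoding RNA lncMREF (KO) and 3 from wild-type mice (WT). The labels give no strain, age, sex or allele design, and leave unsaid if replicates of a genotype are different animals or different cultures. The p-values therefore speak of the spread among 6 libraries, and that spread may be only technical.

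A Tead protein has a TEA domain that recognises the MCAT element of muscle gene promoters and does little to transcription without a cofactor. Yap and Taz enter the nucleus and activate Tead-bound genes unless the Hippo kinases, Mst (Stk3 and Stk4) and then Lats (Lats1 and Lats2), phosphorylate them and hold them in the cytoplasm. Vgll proteins bind the same surface of Tead, and Vgll4 is known to compete with Yap there. In mouse myoblasts Yap is known for sustaining proliferation, Tead4 is a direct target of Myod1, and Vgll2 is a cofactor found mainly in skeletal muscle.

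Library totals ran from 17919826 to 23646805 counts in KO and from 20193337 to 28430678 in WT. All 9 genes passed the filter on low counts, with at least 120 raw counts in every library. Levels are given in CPM, counts scaled to the same TMM-adjusted library total, a scaling described below. Of the 8 muscle lineage markers all were detected. Their summed level was 2214 to 2323 CPM in KO libraries and 11030 to 11570 in WT libraries. Markers of several other cell types moved with genotype too. Calls in what follows are at an adjusted p under 0.05 by the edgeR test described below. By it, 33% of all genes tested were lower and 33.7% higher. The 8 endothelial markers summed to 77.9 to 83.1 CPM in KO and 312 to 318 CPM in WT and were all lower, and the 8 macrophage markers summed to 344 to 356 CPM in KO and 106 to 116 CPM in WT and were all higher. The 8 Schwann cell markers summed to 909 to 933 CPM in KO and 462 to 463 CPM in WT (6 higher, 1 lower), and the 4 cycling cell markers to 307 to 347 CPM in KO and 65.6 to 70.1 CPM in WT (all higher). Of the fibro-adipogenic markers 7 of 8 were tested, summing to 1111 to 1165 CPM in KO and 1131 to 1161 CPM in WT (2 higher, 4 lower), and the 7 smooth muscle and pericyte markers summed to 2355 to 2421 CPM in KO and 2845 to 2973 CPM in WT (1 higher, 4 lower). The part of these differences in the results below was not tested, and fewer cells of a type cannot be told apart from less RNA per cell in bulk libraries.

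The promoters of most of the genes held the core of the Tead binding element. CATTCC, the MCAT core, was searched on either strand (as CATTCC or GGAATG) in the 250 bases before each RefSeq start of the GRCm38.p6 build. Promoter sequences were found for 7 of the 9 genes, all but Tead1 and Tead4. At least 1 start of Yap1, Wwtr1, Vgll3, Vgll4 and Tead3 had a match, which is 5 of 7 genes, against 14.4% of the 27025 genes in the table. Tead2 and Vgll2 had none in these windows. A match is a description of the letters and not evidence of binding. The sequences are shown because 5 of the 7 promoters found carry the core of the element that Tead factors bind. The promoter of Ccn1, a textbook Yap target, is set beside them. Each reads 5′ to 3′ on the strand of its gene, with the match in capitals. Bases next to the start that lie in an annotated exon of the gene are left out, which shortens Tead3 to 238 bases.
Yap1 (chr9:8004597-8004846, minus strand): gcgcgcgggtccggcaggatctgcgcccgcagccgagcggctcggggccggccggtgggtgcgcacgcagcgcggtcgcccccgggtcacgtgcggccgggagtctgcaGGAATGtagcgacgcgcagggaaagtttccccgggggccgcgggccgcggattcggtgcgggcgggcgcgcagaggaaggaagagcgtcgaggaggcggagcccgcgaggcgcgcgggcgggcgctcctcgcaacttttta
Wwtr1 (chr3:57575911-57576160, minus strand): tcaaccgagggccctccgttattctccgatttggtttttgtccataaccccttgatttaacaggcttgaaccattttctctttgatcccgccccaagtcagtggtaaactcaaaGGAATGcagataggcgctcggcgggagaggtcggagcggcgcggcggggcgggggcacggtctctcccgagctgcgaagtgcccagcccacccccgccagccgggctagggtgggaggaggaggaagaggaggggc
Vgll3 (chr16:65814939-65815188, plus strand): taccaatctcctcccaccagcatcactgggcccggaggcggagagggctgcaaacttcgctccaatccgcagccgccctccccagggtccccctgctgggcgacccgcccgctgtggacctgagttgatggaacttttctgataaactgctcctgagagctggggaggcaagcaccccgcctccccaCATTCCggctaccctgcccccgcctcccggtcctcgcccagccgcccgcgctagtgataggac
Vgll4 (chr6:114969204-114969453, minus strand): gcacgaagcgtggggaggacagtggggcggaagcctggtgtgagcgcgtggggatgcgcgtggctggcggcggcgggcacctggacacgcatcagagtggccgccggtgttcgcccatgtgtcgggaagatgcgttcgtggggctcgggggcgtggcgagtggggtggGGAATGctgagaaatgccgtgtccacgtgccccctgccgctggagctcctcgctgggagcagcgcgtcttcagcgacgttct
Tead3 (chr17:28350818-28351055, minus strand): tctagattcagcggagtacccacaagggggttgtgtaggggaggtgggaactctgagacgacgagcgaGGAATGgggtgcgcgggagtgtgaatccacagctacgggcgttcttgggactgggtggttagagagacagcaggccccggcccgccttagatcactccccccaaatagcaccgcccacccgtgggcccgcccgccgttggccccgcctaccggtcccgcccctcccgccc
Ccn1 (chr3:145649986-145650235, minus strand): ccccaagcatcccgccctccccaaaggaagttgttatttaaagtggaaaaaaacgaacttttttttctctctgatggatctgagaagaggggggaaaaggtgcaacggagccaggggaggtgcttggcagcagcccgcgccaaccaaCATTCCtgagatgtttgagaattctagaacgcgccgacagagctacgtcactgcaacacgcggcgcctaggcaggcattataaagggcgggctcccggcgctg
The match begins 58 bases before the start in Vgll3, 77 in Vgll4, 98 in Ccn1, 131 in Wwtr1, 136 in Yap1 and 177 in Tead3, counted to its nearest base. Both listed starts of Wwtr1 share 1 match. Another start of Tead3, inside the gene, has 2 further matches that overlap an annotated exon and are not shown. Among the Yap/Tead target genes described further on, 6 of the 15 found in the table had a match (Amotl2, Ankrd1, Axl, Ccn1, Crim1 and Ptpn14), and among the Hippo kinase and adaptor genes 7 of 24. The Vgll4 window lies inside the annotated span of its gene, before an internal start, and the other windows lie before the gene's first annotated base. No test was made on these shares.

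Most of the Tead, Yap/Taz and Vgll genes had a lower RNA level, after scaling of the libraries, in KO cells than in WT cells. By edgeR's quasi-likelihood test with Benjamini-Hochberg adjustment over all 15518 genes tested, called at an adjusted p under 0.05, 7 of the 9 were lower in KO, 1 was higher and 1 was not called. Over all genes tested 33% were lower, 33.7% were higher and 66.7% were called in either direction. The median log2 fold change of the 9 was -0.48, and that of all genes 0.02. CPM of KO and WT did not overlap for 8 of the 9, against 69.4% of all genes. Tead4 and Vgll2 were lower by over 2-fold, a size of fall seen in 9.38% of all genes, and none of the 9 was higher by over 2-fold, against 8.56% of all genes. With library size as the only scaling, which moved the median of all genes to 0.19 on the log2 scale, 6 of the 9 were lower and 2 higher, against 23.9% lower and 46.6% higher over all genes.

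**Figure D1:**
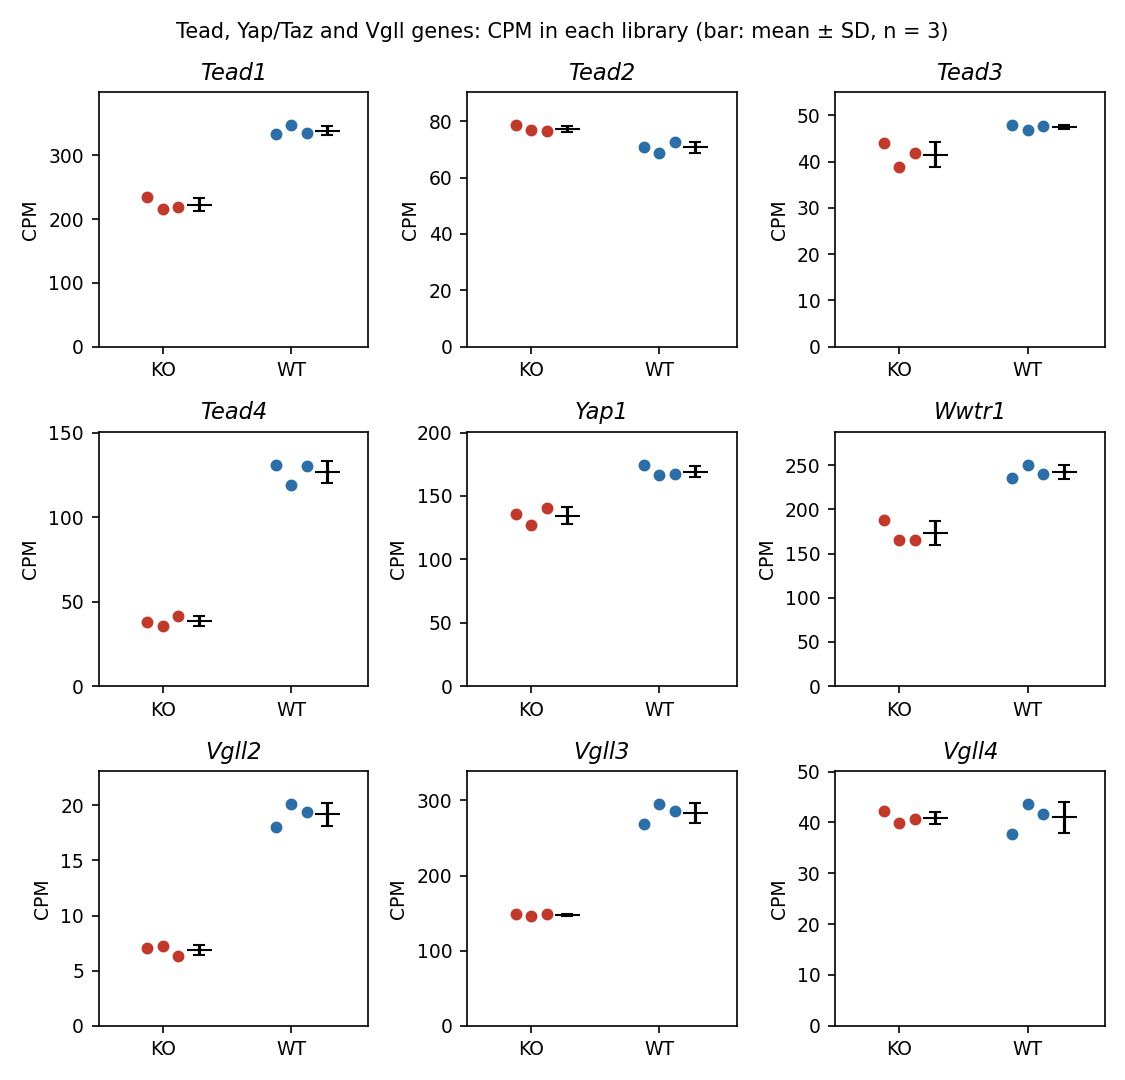
CPM (counts scaled to the same TMM-adjusted library total) of each of the 9 genes in the 3 KO libraries (red) and the 3 WT libraries (blue). Mean ± SD is in black and each vertical axis starts at 0. Tead4, at 35.9 to 41.6 CPM in KO and 119 to 131 CPM in WT, shows the largest fold difference, and Vgll4 alone has overlapping groups.

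Tead4 fell most. The gene (ENSMUSG00000030353, chromosome 6, 128224288 to 128300823, mm10) is the Tead factor that myogenic regulators switch on as myoblasts differentiate. Tead4 had 38.3, 35.9 and 41.6 CPM in KO replicates 1 to 3, against 131, 119 and 130 CPM in WT replicates 1 to 3. All KO libraries lay below all WT libraries. The means were 38.6 ± 2.87 CPM in KO and 127 ± 6.72 CPM in WT (SD, n = 3 each), a 3.3-fold fall (log2 fold change -1.72, SE 0.06, adjusted p 2.14e-24 by edgeR), and 92.6% of tested genes had a smaller change in either direction.

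Tead1 (ENSMUSG00000055320, chromosome 7, 112679318 to 112906807), the Tead factor first described at muscle MCAT elements, fell less. Its level was 234, 216 and 218 CPM in the KO libraries, against 334, 347 and 335 CPM in the WT libraries. The groups did not overlap, and the means of 223 ± 10.04 CPM in KO and 339 ± 7.51 CPM in WT differed 1.52-fold (log2 fold change -0.60, SE 0.04, adjusted p 1.01e-14). Tead3 (ENSMUSG00000002249, chromosome 17, 28331671 to 28350817), known for its expression in placenta, had 44.0, 38.8 and 41.8 CPM in KO and 47.9, 47.0 and 47.6 CPM in WT. The KO libraries were lower by a small margin, a 1.145-fold fall (log2 fold change -0.19, SE 0.06, adjusted p 0.00508). This call was lost with library size only (-0.02, adjusted p 0.732), and over its 11 alternatives the adjusted p ran from 0.00156 to 0.732.

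Tead2 (ENSMUSG00000030796, chromosome 7, 45215753 to 45233644), a Tead factor of the early embryo, was the only one of the 9 genes that rose. It had 78.6, 76.8 and 76.4 CPM in KO libraries and 70.8, 68.8 and 72.8 CPM in WT libraries. The rise was 1.09-fold (log2 fold change 0.12, SE 0.05, adjusted p 0.0287), and the groups did not overlap. The call was lost with DESeq2 (0.11, adjusted p 0.0748), with no low-count filter (0.11, adjusted p 0.0839) and without KO replicate 1 (0.11, 0.0863), WT replicate 1 (0.11, 0.105), WT replicate 2 (0.09, 0.146) or WT replicate 3 (0.13, 0.0518), with adjusted p-values from 3.57e-06 to 0.146 over the alternatives. The direction was higher in KO under each of them.

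The makeup of the Tead family differed between the genotypes. Levels were divided by exon length, since counts of different genes compare only per length. Exon lengths per gene, as the union of annotated exons, were 13.6 kb for Tead1, 4.79 kb for Tead2, 6.71 kb for Tead3 and 3.6 kb for Tead4. The summed Tead level was 50.9, 47.7 and 49.8 CPM per kb in KO libraries and 83.0, 80.1 and 83.2 CPM per kb in WT libraries. The KO mean was 0.603 times the WT mean, and 0.678 times with library size only.

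Tead4 made up 21.7 ± 1.33% of this sum in KO and 42.9 ± 1.39% in WT (SD, n = 3 each), a difference of -21.3 percentage points. Tead2 made up 32.6 ± 0.87% in KO and 18.01 ± 0.23% in WT. Thus Tead4 had the highest Tead level per kb in each WT library, and Tead1 and Tead2 stood above it in each KO library. The share of Tead1 was 33.2 ± 0.839% in KO and 30.4 ± 1.33% in WT, and that of Tead3 12.5 ± 0.385% in KO and 8.62 ± 0.107% in WT. For all 4 shares the groups did not overlap, and the two-sided exact permutation test gave p = 0.1, the smallest that 3 libraries against 3 allow. A share within a library does not depend on library scaling, and with the longest transcript in place of the exon union the Tead4 share was 18 ± 1.14% in KO and 37.5 ± 1.31% in WT. The difference in the Tead1 share was 2.76 percentage points and became 1.11 with the longest transcript (exact permutation p = 0.3).

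**Figure D2:**
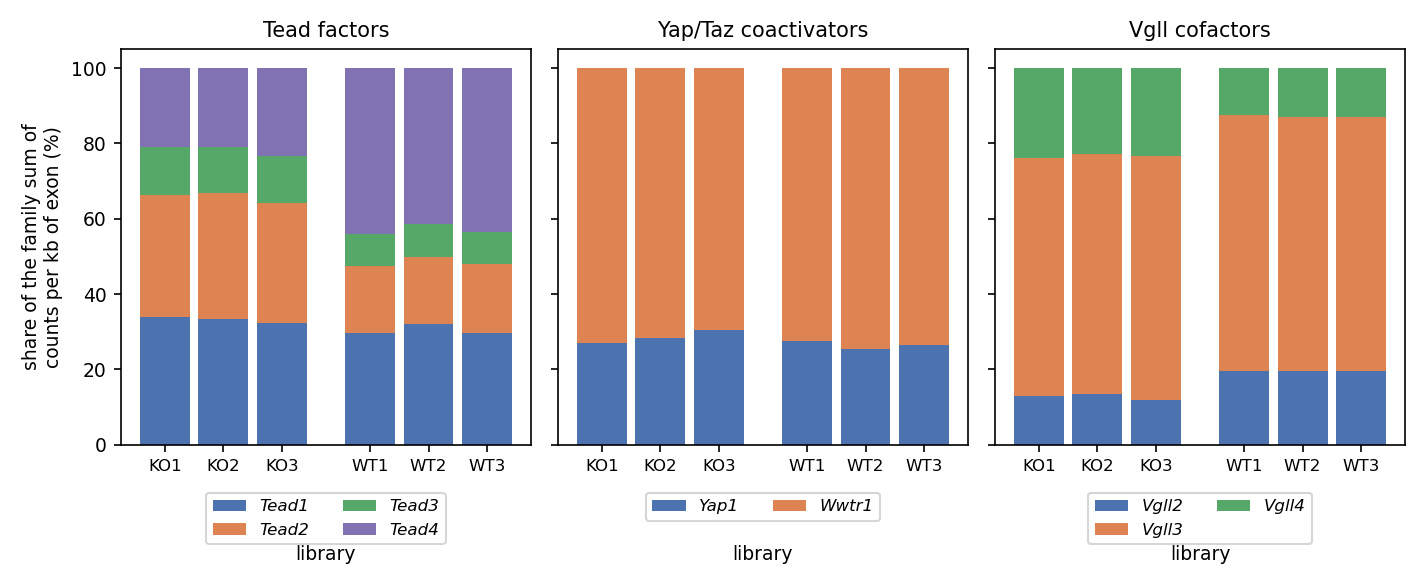
Share of each gene in its family's summed level (counts per kb of exon, in %) for every library, with KO libraries on the left of each panel and WT libraries on the right. The Tead4 block is 20.9% to 23.2% in KO and 41.4% to 44.0% in WT, while the Yap1 and Wwtr1 blocks overlap between genotypes.

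Both coactivators fell, by less than Tead4. Yap1 (ENSMUSG00000053110, chromosome 9, 7931999 to 8004596) had 136, 127 and 140 CPM in KO libraries, against 175, 166 and 167 CPM in WT libraries. All KO values were below all WT values, with a 1.26-fold fall (log2 fold change -0.34, SE 0.05, adjusted p 5.78e-08). Wwtr1 (ENSMUSG00000027803, chromosome 3, 57455649 to 57575910) had 188, 166 and 165 CPM in KO libraries, against 235, 251 and 240 CPM in WT libraries. Its groups were also apart, with a 1.4-fold fall (log2 fold change -0.48, SE 0.05, adjusted p 1.14e-10). Per kb of exon, Wwtr1 RNA exceeded Yap1 RNA 2.5 ± 0.206-fold in KO and 2.77 ± 0.155-fold in WT, ratios whose groups overlapped (two-sided exact permutation p = 0.2). The size of this ratio depends on the length used: with the longest transcript it was 1.45 ± 0.12 in KO and 1.61 ± 0.0898 in WT. The summed Yap1 and Wwtr1 level per unit of summed Tead level was 1.06, 1.01 and 0.997 in KO and 0.821, 0.879 and 0.821 in WT, higher in each KO library (exact permutation p = 0.1, the smallest allowed). The summed Vgll level per unit of summed Tead level was 0.658 ± 0.018 in KO and 0.721 ± 0.05 in WT, with overlapping groups (exact permutation p = 0.2).

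The Vgll genes split. Vgll2 (ENSMUSG00000049641, chromosome 10, 52022502 to 52028471), the muscle cofactor of Tead and the least abundant of the 9 in CPM, had 7.07, 7.21 and 6.32 CPM in KO and 18.1, 20.1 and 19.4 CPM in WT. It fell 2.78-fold (log2 fold change -1.48, SE 0.10, adjusted p 1.96e-15) with groups well apart. Vgll3 (ENSMUSG00000091243, chromosome 16, 65815257 to 65866368), a Tead cofactor present in myoblasts, had 148, 147 and 148 CPM in KO and 268, 295 and 287 CPM in WT. The KO libraries lay close together and below all WT libraries, a 1.92-fold fall (log2 fold change -0.94, SE 0.04, adjusted p 6.48e-20).

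Vgll4 (ENSMUSG00000030315, chromosome 6, 114860628 to 114969994), the competitor of Yap for Tead, had 42.3, 39.9 and 40.7 CPM in KO and 37.7, 43.6 and 41.7 CPM in WT. The groups overlapped, with means of 41.0 ± 1.19 CPM in KO and 41.0 ± 2.98 CPM in WT (log2 fold change -0.00027, SE 0.06, adjusted p 0.997). With library size only it was called higher in KO (0.17, adjusted p 0.0161), close to the median of all genes on that scale, and over the 11 alternatives the adjusted p ran from 0.0161 to 0.997. Of the summed Vgll level per kb, Vgll4 held 23.3 ± 0.451% in KO and 12.9 ± 0.261% in WT, Vgll2 held 12.8 ± 0.822% in KO and 19.7 ± 0.0366% in WT, and Vgll3 held 63.9 ± 0.769% in KO and 67.5 ± 0.286% in WT. For each of them the shares did not overlap (exact permutation p = 0.1, the smallest allowed). With the longest transcript as length, the Vgll4 share was 42.5 ± 0.616% in KO and 26.4 ± 0.453% in WT, so its size depends on the length used, while it was higher in KO with either.

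**Figure D3:**
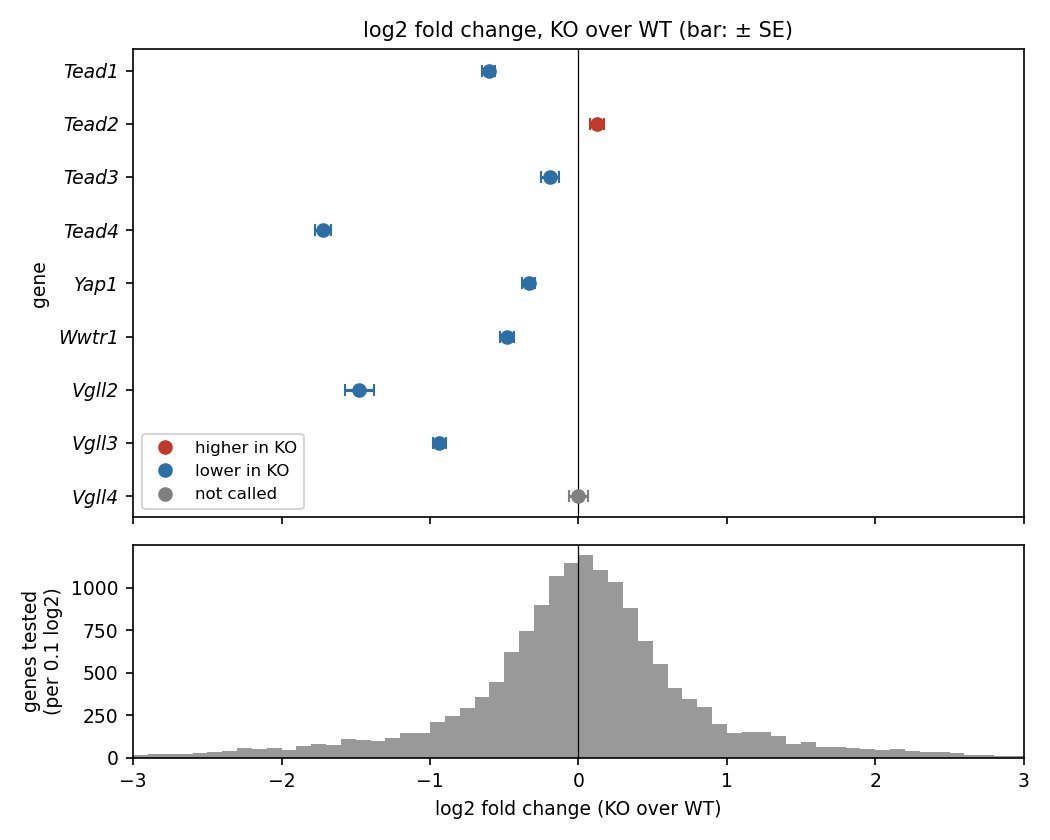
Top, log2 fold change of KO over WT for the 9 genes with ± SE; bottom, the number of tested genes per 0.1 log2 on the same axis, with genes beyond 3 in either direction not drawn. Tead4 (-1.72) and Vgll2 (-1.48) lie in the lower tail of all genes, and Vgll4 and Tead2 lie near 0.

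The order of the levels per kb of exon depends on the gene length used, and is given first for the exon union. In KO it ran Wwtr1 (36.2 CPM per kb), Vgll3 (20.8), Tead1 (16.4), Tead2 (16.1), Yap1 (14.5), Tead4 (10.7), Vgll4 (7.59), Tead3 (6.19) and Vgll2 (4.16). In WT it ran Wwtr1 (50.6 CPM per kb), Vgll3 (39.9), Tead4 (35.3), Tead1 (25.0), Yap1 (18.3), Tead2 (14.8), Vgll2 (11.6), Vgll4 (7.60) and Tead3 (7.07). Neighbours in these orders did not overlap between libraries, except Tead1 with Tead2 in KO and Vgll4 with Tead3 in WT. With the longest transcript, an alternative added for these levels after the data were seen, Wwtr1 was still highest in both genotypes, at 36.9 CPM per kb in KO and 51.5 in WT, and Vgll2 was lowest in both. On that length Yap1 stood next below Wwtr1 in KO at 25.4 CPM per kb and between Tead1 and Tead2 in WT at 32.0, Vgll4 had 18.6 CPM per kb in KO and 18.65 in WT, and Tead4 had 12.6 in KO and 41.3 in WT. The next-lower gene overlapped Tead2 (Tead1) and Tead4 (Tead3) in KO, and Tead4 (Vgll3) in WT. Little sequence is shared between the paralogues: at most 0.272% of the 50-base stretches in a gene's transcripts (Tead4) also occur in another of the 9 genes. Only Yap1 and Tead2 shared exonic bases with a gene outside the 9, Tead2 over 0.272% of its exonic length and Yap1 over a small part of its own.

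For each of the 9 genes, the tested gene with the most similar profile over the 6 libraries was found as the smallest Euclidean distance between mean-centred log2 CPM values. These were Dtna for Tead1 (distance 0.0384), Ap2m1 for Tead2 (0.038), Hsf1 for Tead3 (0.0239), Gpr146 for Tead4 (0.123), Ltn1 for Yap1 (0.0434), Arhgap24 for Wwtr1 (0.0521), Ret for Vgll2 (0.0948), Eda2r for Vgll3 (0.0741) and Gemin5 for Vgll4 (0.063). No gene of the 9 was the nearest to another. With 6 libraries in 2 groups the distance mostly reflects the size of the genotype difference.

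Upstream of Yap and Taz, the Hippo kinases and adaptors moved in both directions. Of 28 genes, all tested, 12 were lower (33% of all genes), 8 were higher (33.7% of all genes) and 8 were not called, with a median log2 fold change of -0.04 (0.02 over all genes). The genes that fell with the smallest p were the kinase Taok1, which activates Mst, at 84.0 ± 3.25 CPM in KO and 151 ± 5.55 CPM in WT (-0.85, SE 0.05), the Yap-binding scaffold Amot at 30.1 ± 2.19 CPM in KO and 64.6 ± 0.513 CPM in WT (-1.10, SE 0.06), the Lats cofactor Mob1b (-0.78, SE 0.06) and Stk4, which encodes Mst1 (-0.59, SE 0.05). Their adjusted p-values lay between 1.01e-17 and 7.31e-12. The other paralogue of Mob1b, Mob1a, was higher (0.14, SE 0.04, adjusted p 0.00554), and that of Stk4, Stk3, was lower (-0.28, SE 0.08, adjusted p 0.00312). Mob1a and Stk3 were named after their values were seen, and both calls depend on a setting: leaving out WT replicate 2 ended the Mob1a call (adjusted p 0.0661) and library size only ended the Stk3 call (adjusted p 0.221).

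The Hippo genes that rose with the smallest p were the giant cadherin Fat4 at 17.7 ± 2.14 CPM in KO and 8.17 ± 0.89 CPM in WT (1.12, SE 0.11, adjusted p 2.31e-11), Map4k1, a kinase known from blood cells, at 1.78 ± 0.367 CPM in KO and 0.725 ± 0.2 CPM in WT (1.32, SE 0.30, adjusted p 0.00026), the Amot relative Amotl1 (0.17, SE 0.04, adjusted p 0.000411) and the FERM protein Frmd6 (0.22, SE 0.05, adjusted p 0.000445). Of the Fat4 exonic bases 8.68% are shared with another gene. The 8 macrophage markers were higher in the same libraries as Map4k1, and their part in its rise was not tested. Of the kinases that phosphorylate Yap directly, Lats1 stood at 65.2 ± 3.05 CPM in KO and 67.0 ± 3.36 CPM in WT and was not called (-0.04, adjusted p 0.529), and Lats2 stood at 37.3 ± 1.97 CPM in KO and 45.9 ± 1.17 CPM in WT (-0.30, adjusted p 5.06e-05). Of the Lats2 exonic bases, 42.4% are shared with another annotated gene, and its call was lost with library size only (adjusted p 0.0539). With library size only, 15 of the 28 were higher and 8 lower, beside 46.6% higher and 23.9% lower over all genes.

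Among genes activated by Yap, Taz and Tead, Ccn1, Ccn2 and Ankrd1 fell, while others rose or were not called. The list is a signature of 22 Yap/Taz targets defined in human tumours. Amotl2, Lats2 and Ptpn14 are also on the Hippo list above and are counted in both. All 22 were tested, and 11 were lower (33% of all genes), 5 were higher (33.7% of all genes) and 6 were not called, with a median log2 fold change of -0.17 (0.02 over all genes). Ccn2, a secreted matricellular protein, had 267 ± 8.79 CPM in KO and 1022 ± 27.3 CPM in WT, a 3.83-fold fall (log2 fold change -1.94, SE 0.04, adjusted p 1.32e-29), and 23.2% of its exonic bases are shared with another gene. Its relative Ccn1 had 207 ± 2.43 CPM in KO and 358 ± 6.18 CPM in WT (-0.79, SE 0.04, adjusted p 1.46e-18). Ankrd1, a titin-binding ankyrin repeat protein of striated muscle, had 48.1 ± 6.59 CPM in KO and 227 ± 7.77 CPM in WT (-2.23, SE 0.08, adjusted p 8.77e-10). The forkhead factor Foxf2 (log2 fold change -1.62, SE 0.11), the membrane protein Crim1 (-0.97, SE 0.05) and the IGF-binding protein Igfbp3 (-0.77, SE 0.04) fell too.

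The Arf GTPase regulator Asap1 rose (0.55, SE 0.05, adjusted p 4.57e-11), as did the Golgi protein Fjx1 (0.48, SE 0.08), the stress gene Gadd45b (0.26, SE 0.06) and the matrix protein Ccdc80 (0.13, SE 0.04, adjusted p 0.00606). Leaving out WT replicate 3 ended the Ccdc80 call (0.10, adjusted p 0.0752) and that of the phosphatase Ptpn14 (0.14, adjusted p 0.0502, against 0.15 and 0.0149 with all libraries), so that 3 of the 22 were higher in place of 5. Ptpn14 also lost its call without WT replicate 1 (0.10, adjusted p 0.157), KO replicate 1 (0.15, 0.0503) or KO replicate 3 (0.09, 0.14). With library size only, 11 of the 22 were higher (46.6% of all genes at that scaling) and 9 lower (23.9%). The receptor Axl, the most abundant of those not called, stood at 933 ± 34.2 CPM in KO and 959 ± 15.8 CPM in WT (-0.04, adjusted p 0.391), and was named after its value was seen.

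**Figure D4:**
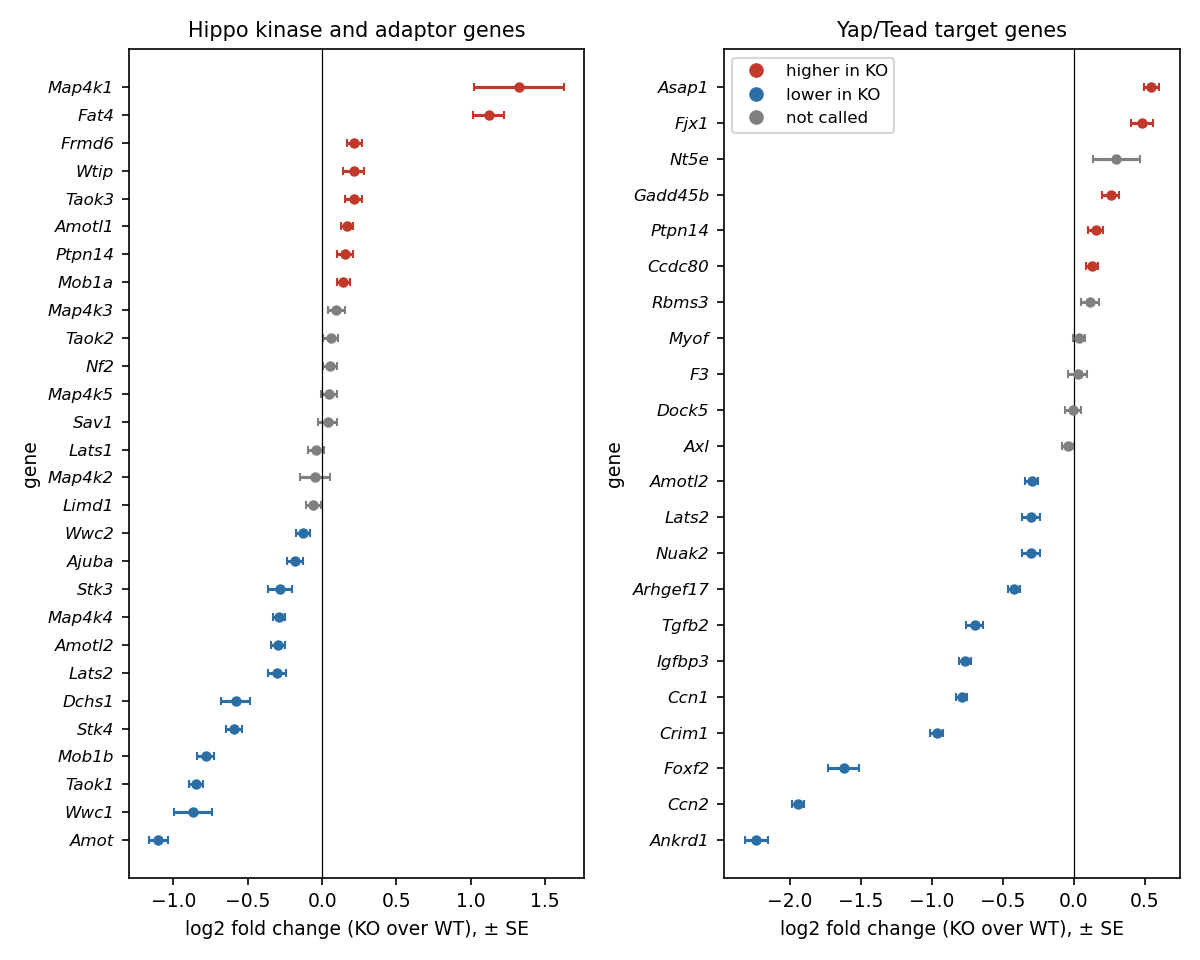
Log2 fold change of KO over WT with ± SE for the 28 Hippo kinase and adaptor genes (left) and the 22 Yap/Tead target genes (right), each sorted by its value. The Hippo genes lie on both sides of 0, while Ankrd1 (-2.23), Ccn2 (-1.94) and Foxf2 (-1.62) stand apart at the low end of the targets.

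Muscle genes with MCAT elements were lower in KO. Of 5 such genes 4 were tested, and all 4 fell, where 33% of all genes were lower: the slow myosin heavy chain Myh7 (-2.27, SE 0.08), skeletal actin Acta1 (-1.89, SE 0.04), cardiac troponin T Tnnt2, in whose chicken gene the element was first described (-1.60, SE 0.05), and smooth muscle actin Acta2 (-0.29, SE 0.04), with adjusted p-values from 4.65e-29 to 8.78e-08. Of the 8 muscle lineage markers, 6 were lower beside them and 1, Pax7, was higher (33% and 33.7% of all genes). Acta2 had 1830 ± 50.6 CPM in KO and 2233 ± 58.5 CPM in WT. Reads may be shared among myosin paralogues and among actin paralogues, and 13.3% of the exonic bases of Myh7 are shared with other genes. Myh6 did not pass the filter on low counts, and no row for Vgll1 was found in the count matrix.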

How the data were processed

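RNA was extracted with TRIzol and sequenced on an Illumina instrument, per the labels' protocols. HISAT2 2.2.1, featureCounts 2.0.1 and mm10 are named in the submitters' processing notes; the sources used here do not give the annotation release, the counting options or whether strand was used. Raw counts per gene were deposited by the authors as a matrix of all libraries and as a table for each library. The matrix was used for all tests. The per-library tables differ from it gene by gene (1 of the 9 genes had a mean within 0.8 to 1.25 times its matrix mean) and were only compared.

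Symbols, mm10 coordinates and exon lengths come from GENCODE M21, which held 21632 of 21666 identifiers. Promoters come from RefSeq (GRCm38.p6). The low-count filter was filterByExpr with a minimum count of 10 and a minimum total of 15. Scaling was by TMM, and the genotype term was tested with the robust quasi-likelihood F-test of edgeR 4.0.16 under R 4.3.3. CPM were computed on the TMM-scaled library totals, and the SE is the log2 fold change over the square root of F. The log2 CPM of the profile distances used a prior count of 2. The test was checked on simulated data. Alternatives were median-of-ratios factors, library size only, no low-count filter, DESeq2 1.42.0, a replicate block, each library left out, and the longest transcript as length. Replicates of 1 genotype differed by a chi-square of 3.18 to 5.11 per gene (over genes whose summed count in the pair was 30 or more), above the sampling value of 1, so none was taken for a repeat deposit.

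The genes and lists were chosen with earlier results of these data known. Named from the lists were the 4 smallest p in each direction and called changes over 1 on the log2 scale. Counting the targeted lncRNA was not done, since no identifier for it was at hand.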

Additional observations from a re-analysis of the deposited data

How the results depend on the processing

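Of the 9 genes, 6 (Tead1, Tead4, Yap1, Wwtr1, Vgll2 and Vgll3) kept direction and call under all 11 alternatives. Tead4 ran from -1.78 to -1.55 and Yap1 from -0.37 to -0.16 on the log2 scale. Tead2 lost its call with no low-count filter (0.11, adjusted p 0.0839) and DESeq2 (0.11, 0.0748), and ran from 0.0934 to 0.13 with 1 library left out (adjusted p 0.0347 to 0.146), so the number of the 9 called higher was 0 in those fits and 0 to 1 with 1 library left out. Scaled by library size only, all genes had a median of 0.19 in place of 0.02, 66.1% of calls in place of 50.5% were higher, 2 of the 9 were higher, Tead3 lost its call (-0.0241, adjusted p 0.732) and Vgll4 turned to 0.17 (0.0161). On that scale 15 Hippo genes and 11 targets were higher, and Lats1 (0.13), Wwc2 (0.0433), Limd1 (0.11), Axl (0.13) and Dock5 (0.16) changed sign. Map4k2 changed sign too (0.12) but was called at neither scaling. This scaling moves the fold changes of all genes up together, for instance Tead1 from -0.60 to -0.43 and Dock5 from -0.01 to 0.16. The reason the 2 scalings differ and the cause of the other changes were not tested. Targets called higher ran from 3 to 5 with 1 library left out. Of 51 other pathway and MCAT genes, 29 kept their call under all alternatives, and all of these but Map4k2 also kept direction. Map4k2 was called in none of the fits. Genes called in all ran from 9625 (DESeq2) to 11055 (no low-count filter). The Tead4 share difference ran from -22.1 to -19.5 percentage points.

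Replicate numbers are shared between genotypes, but same-numbered libraries did not deviate together (correlations -0.000914, -0.00889 and -0.025 across genes). With the replicate block 10209 genes were called in place of 10353, and 8 of the 9 genes as before; the block changed no call of the 9 genes or of the listed pathway genes. The longest transcript, applied to all levels per kb after the data were seen, moved the Wwtr1 to Yap1 ratio to 1.45 in KO and 1.61 in WT, and the Vgll4 level to 18.6 CPM per kb in KO. The Yap/Taz to Tead ratio became 0.893 in KO and 0.761 in WT, with the same direction.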

Other observations

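The 2 deposited forms of the counts gave different values for most of the 9 genes. Their totals differed too, at 5501088 to 9136354 counts per library in the per-library tables and 17919826 to 28430678 in the matrix. The per-library tables held means over the 6 libraries of 3570 counts for Yap1 (matrix 3399), 2204 for Tead2 (1660) and 336 for Tead4 (1873). Tead1, Wwtr1 and Vgll4 had 6.67, 12.3 and 3 counts there, against 6302, 4656 and 917 in the matrix, and Tead3, Vgll2 and Vgll3 had 0 in all 6 libraries. The cause of these differences was not tested.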
